A study of Chlamydomonas reinhardtii with 16 samples.

Results

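The cultures compared here are those of the green alga *Chlamydomonas reinhardtii* sampled at Zeitgeber time (ZT, the hours since lights on) 3 and at ZT15, that is 3 hr into the light and 3 hr into the dark. The libraries were chosen by their titles, 3A and 3B against 15A and 15B, and are 4 of the 16 libraries in the series. All cultures were of strain dw15.1 and were grown in Tris-acetate-phosphate medium, in which acetate is a carbon source besides photosynthesis. Each library came from its own culture, which had spent 48 hr under alternating 12-hr light and 12-hr dark periods and was sampled at 1 of 8 time points, with 2 cultures (replicates A and B) at each. ZT3 and ZT15 share strain and medium, and differ both in light and in the hour of the cycle. Cells of the dark hours were also harvested in amber tubes and under dim green light. Light itself, time of day and this step of the harvest cannot be told apart in this comparison. The replicates of a time point were sequenced in different lanes.

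In *C. reinhardtii*, light drives the chloroplast's photosystems, whose electrons pass through ferredoxin to make NADPH, and the Calvin cycle uses this NADPH and ATP to fix carbon dioxide. Cells kept in alternating light and dark grow during the day and divide by multiple fission around the start of the night, when DNA replication, new histones and a mitotic spindle are needed. The cilia are resorbed before division and are built again by the daughter cells. These are facts known from other work and are given as background.

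RNA was sequenced from whole cells, and expression is given as FPKM, the fragments of a gene divided by transcript length in kilobases and by the mapped fragments of the library. All FPKM printed here were first scaled so that the 75th percentile over 17114 gene models was the same in every library. The 4 libraries held between 1.15e+07 and 1.57e+07 fragments in gene models. Their 75th percentiles as deposited were 6.25 and 6.21 FPKM at ZT3 and 8.38 and 8.46 FPKM at ZT15. The 100 genes with the highest FPKM held 46.2% and 45.3% of all FPKM at ZT3 but 34.7% and 34.8% at ZT15. The scaling therefore moves the log2 ratio of FPKM at ZT3 to ZT15 by 0.44 in every gene. On the log2(FPKM + 1) scale used for all differences here, low genes move by less. Where the FPKM as deposited reverse the direction of a gene group discussed, their count or median is given. It stands beside the group or in the closing section on processing. Across genes, the replicate cultures correlated at 0.997 (ZT3) and 0.994 (ZT15), while cultures of different time points correlated at 0.804 and 0.785. These correlations are over 11999 genes, which are not independent replicates. An RNA level from whole cultures does not separate fewer cells that express a gene from less RNA per cell. The p-values set each difference against the spread between replicate cultures, which was taken over all 8 time points.

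Most genes that could be tested differed between 3 hr of light and 3 hr of dark. Of 11999 gene models with a mean of at least 1 FPKM over the 4 libraries, 4573 were higher at ZT3 (38.1%) and 4406 were lower (36.7%), so that 74.8% differed in either direction (limma on log2(FPKM + 1), Benjamini-Hochberg adjusted p under 0.05). Before scaling, that is on the FPKM as deposited, the same 11999 genes split into 2597 higher and 6760 lower, so the balance of directions rests on the scaling. With the filter applied to the unscaled values too, the split was 2686 and 7237 of 12757 genes. Sizes were often small, with a median absolute difference of 0.46 on the log2 scale. At least 2-fold differences were found for 1333 genes higher at ZT3 (11.1%) and 1355 lower (11.3%). At a log2 difference of at least 3 there were 100 genes higher and 174 lower, and at 5 or more there were 7 higher and 21 lower. Both cultures of 1 time point lay above both of the other for 10486 genes, 87.4% of those tested. A gene whose mean was under 1 FPKM at 1 time point could enter the test only through the other, and 1733 of the 1807 such genes passed the test. The filter thus favored genes that differ, and where a gene of this kind is named its level under 1 FPKM is pointed out. Counts on the FPKM as deposited given below for gene groups are over the members tested here.

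**Figure D1:**
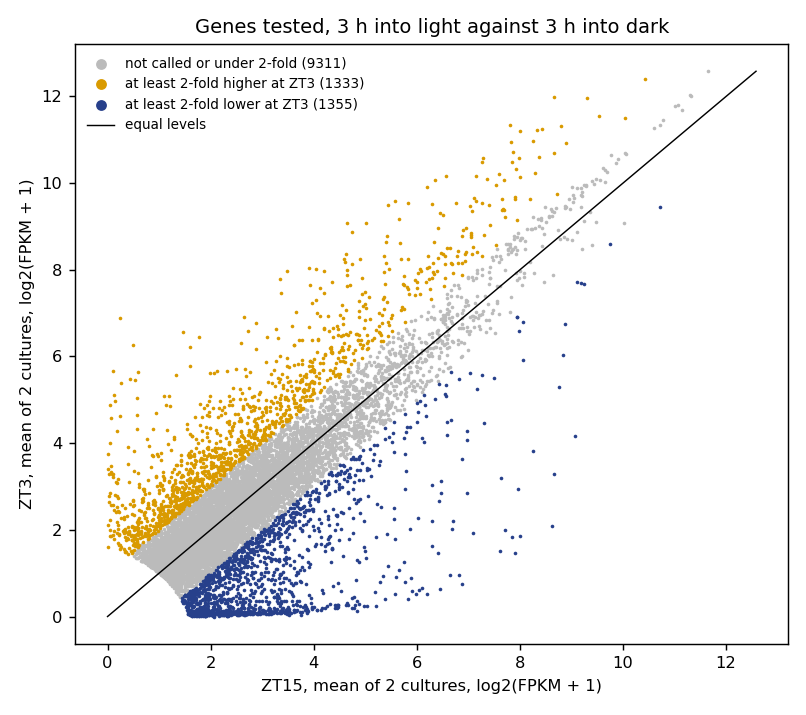
Each point is 1 of the 11999 genes tested, with the mean of the 2 cultures at ZT15 on the horizontal axis and at ZT3 on the vertical axis, both as log2(FPKM + 1). The 1333 genes at least 2-fold higher and the 1355 at least 2-fold lower at ZT3 lie off the diagonal in nearly equal numbers, and the farthest of them lie more than 6 log2 units from it.

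The gene with the largest rise in the light was Cre17.g742128, on chromosome 17 from 6300189 to 6302734 (genome version 4.3). Its FPKM were 124 and 110 at ZT3 and 0.217 and 0.144 at ZT15, a log2 difference of 6.64 ± 0.08 (SE, limma adjusted p = 1.24e-16). Cre03.g183300 (75.8 and 76.9 against 0.403 and 0.422 FPKM) and Cre16.g681383 (53.5 and 45.7 against 0.0768 and 0.0709 FPKM) followed with log2 differences of 5.78 and 5.55. All 3 genes were under 1 FPKM at ZT15 and passed the filter through the light alone. In the other direction, Cre17.g710300 (chromosome 17, 1909830 to 1913558) had 3.75 and 2.80 FPKM at ZT3 and 383 and 401 FPKM at ZT15, a log2 difference of -6.53 ± 0.19 (adjusted p = 2.16e-13). Cre02.g130150 (-6.43), Cre17.g696700 (-6.17), Cre17.g708750 (-6.15) and Cre02.g134650 (-6.11) came next, of which Cre17.g696700 was under 1 FPKM at ZT3. No name or family was at hand for these loci, so nothing is said of their roles. Values are printed on a log2(FPKM + 1) scale, which understates the change of genes with levels below about 1 FPKM.

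The most abundant transcripts did not belong to the genes with the largest changes. Cre10.g459250, which the study lists with the cytosolic large ribosomal subunit, had the highest mean level, 6384 and 5868 FPKM at ZT3 against 3216 and 3218 FPKM at ZT15 (log2 difference 0.93 ± 0.09, limma adjusted p = 2.50e-07). Cre03.g182551 had 5437 and 5373 FPKM against 1362 and 1381 FPKM (1.98 ± 0.08), and Cre12.g494050, another gene of the large subunit list, had 4352 and 3950.2 FPKM against 2497 and 2579 FPKM (0.71 ± 0.10). In all 3 genes the groups did not overlap. Both cultures shared 97 of their 100 highest genes at ZT3 and 98 at ZT15, and 61 genes were in both sets.

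Genes of the photosynthetic light reactions were higher in the light. LHCII, a chlorophyll-binding protein of the antenna (Cre06.g283950, chromosome 6, 4071804 to 4073491), had 559 and 519 FPKM at ZT3 and 31.9 and 30.9 FPKM at ZT15. The difference was 4.06 ± 0.10 on the log2 scale (limma adjusted p = 4.80e-14), or 17.1-fold. The study's function list for photosystem I, which also holds this LHCII gene, had all 9 members higher at ZT3 and each by at least 2-fold, with a median log2 difference of 2.83 beside 0.01 over all genes tested. Cre06.g285250 (2431 and 2270 against 261 and 249 FPKM) and Cre32.g781300 (1498 and 1360 against 163 and 144 FPKM) had differences of 3.20 and 3.21. Cre06.g284250 went from 9.05 and 6.08 FPKM at ZT15 to 71.6 and 101 FPKM at ZT3. The log2 differences of the list ranged from 1.73 to 4.06. The study drew this and its other function lists from genes that it called cyclic on these samples and that shared a predicted hour of peak expression, so they are not independent evidence of a direction or of a shared peak.

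The thylakoid lumen is the space inside the photosynthetic membranes, where the water-splitting complex and its assembly factors sit. All 9 members of that list were at least 2-fold higher at ZT3, with log2 differences from 1.32 to 3.22 and a median of 1.75. The most abundant, Cre02.g132800, had 2354 and 2405 FPKM in the light and 326 and 313 FPKM in the dark (2.89 ± 0.07, limma adjusted p = 5.95e-14). Cre02.g082500 had 734 and 737 against 80.7 and 75.3 FPKM, a difference of 3.22. The list also holds a cyclophilin-domain and an FKBP-domain protein, peptidyl-prolyl isomerases that help proteins fold, at 1.46 (Cre06.g303300) and 1.32 (Cre12.g534700). The study formed the lumen list from genes with a peak at ZT3 and the photosystem I list from genes with a peak at ZT6, and the highest means of the day, at ZT3 in all 9 genes of the first and at ZT6 in 8 of the 9 of the second, restate that choice.

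Ferredoxins carry electrons from photosystem I, and ferredoxin-NADP reductase passes them to NADPH. FNR1 (Cre11.g476750, chromosome 11, 1594719 to 1598362) had 396 and 403 FPKM in the light and 43.1 and 39.8 FPKM in the dark, 3.24 ± 0.09 on the log2 scale (limma adjusted p = 1.31e-13). Of the other genes that share its NAD-binding domain, Cre01.g000350 was higher (1.30), Cre01.g059450 (-0.47) and Cre01.g039350 (-0.31) were lower, and in all 2 of 6 tested were higher and 3 lower. Of 14 genes with a plant-type ferredoxin domain, 12 were tested, and 11 were higher at ZT3 with none lower. Of these 12, 4 were under 1 FPKM at 1 time point, and on the FPKM as deposited 9 of the 12 were higher and 1 lower. The most abundant, Cre14.g626700, had 2942 and 2870 FPKM against 1063 and 1038 FPKM (1.47). The largest difference in the family was that of Cre07.g334800, at 126 and 131 FPKM against 12.5 and 10.6 FPKM (3.37 ± 0.13, adjusted p = 4.54e-12).

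**Figure D2:**
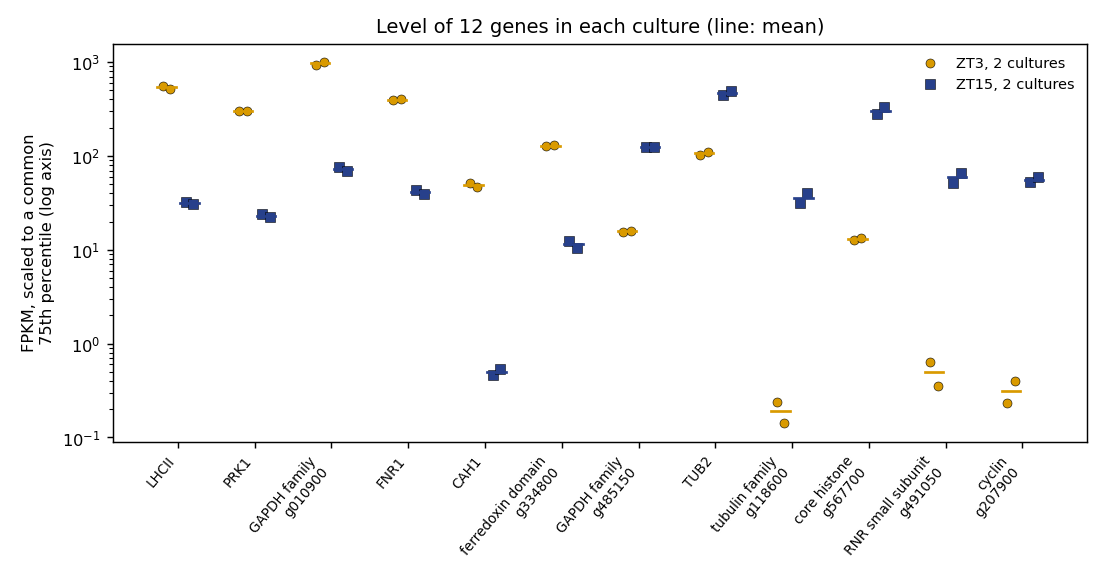
Levels of 12 genes in each of the 4 cultures are shown as FPKM scaled to a common 75th percentile, on a log axis, with circles for ZT3, squares for ZT15, replicate A to the left of B and a line at each mean. In all 12 genes the cultures of ZT3 and ZT15 are farther apart than the replicates of either, with LHCII at 559 and 519 FPKM in the light against 31.9 and 30.9 FPKM in the dark and TUB2 at 103 and 109 against 444 and 496 FPKM.

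Several genes for enzymes of carbon fixation were higher in the light, while others of the same families were not. They were taken from single families and from the genes the study names, not from 1 list of the pathway. PRK1, phosphoribulokinase, which regenerates the acceptor of carbon dioxide in the Calvin cycle (Cre12.g554800, chromosome 12, 8448962 to 8452595), had 299 and 303 FPKM at ZT3 and 23.8 and 22.6 FPKM at ZT15. That is 12.98-fold, or 3.64 ± 0.07 on the log2 scale (limma adjusted p = 3.20e-15). The phosphoglycerate kinase gene Cre22.g763250 rose likewise, from 38.4 and 41.6 FPKM in the dark to 240 and 253 FPKM in the light (2.59 ± 0.09). The other gene with that domain, Cre07.g354250, stayed below the filter at 0.787 to 1.17 FPKM.

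Of the 3 genes with a glyceraldehyde 3-phosphate dehydrogenase domain, 1 rose, 1 fell and 1 did not pass the test. This enzyme has chloroplast forms that serve the Calvin cycle and other forms that serve glycolysis, and which form each locus encodes is not given by the domain. Cre01.g010900 had 935 and 1002 FPKM in the light and 76.4 and 68.5 FPKM in the dark, a log2 difference of 3.72 ± 0.11 (limma adjusted p = 3.60e-13). Cre12.g485150 had 15.6 and 15.9 FPKM in the light and 125 and 125 FPKM in the dark (-2.92 ± 0.10, adjusted p = 8.41e-13). These 2 genes thus differed in opposite directions, 13.4-fold and 7.96-fold. Cre07.g354200 was at 3.44 to 4.09 FPKM in all 4 cultures, with overlapping groups (0.08 ± 0.08, adjusted p = 0.374).

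The study names 4 loci for chloroplast fructose-bisphosphate aldolase, which joins triose phosphates in the Calvin cycle. FBA3 (Cre05.g234550) was by far the most abundant, at 962 and 1027 FPKM in the light and 178 and 191 FPKM in the dark (2.42 ± 0.09, limma adjusted p = 3.52e-12). FBA1 (18.6 and 21.0 against 3.91 and 4.72 FPKM) and FBA2 (20.7 and 21.8 against 4.73 and 4.22 FPKM) differed by 1.97 and 2.02. FBA4 was low in all 4 cultures, at 1.60 and 2.44 against 1.12 and 1.28 FPKM (0.45 ± 0.14, adjusted p = 7.69e-03), and its call was lost on the FPKM as deposited and when replicate B of ZT3 or replicate A of ZT15 was left out.

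The small subunit of Rubisco, the enzyme that fixes carbon dioxide, is encoded by 2 neighboring genes. Cre02.g120100 had 305 and 282 FPKM in the light against 121 and 121 FPKM in the dark (1.27 ± 0.13, limma adjusted p = 4.47e-07). Cre02.g120150, the more abundant, had 1128 and 1035 FPKM against 740 and 769 FPKM (0.52 ± 0.12, adjusted p = 9.58e-04), a call that was lost on the FPKM as deposited. The authors' mapping kept 1 hit per read, so reads shared by near-identical copies such as these may have been placed on either.

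Carbonic anhydrases interconvert carbon dioxide and bicarbonate. CAH1 (Cre04.g223100, chromosome 4, 1849050 to 1853299) had 51.6 and 46.6 FPKM in the light but 0.464 and 0.537 FPKM in the dark. Its difference of 5.06 ± 0.14 (limma adjusted p = 1.56e-13) corresponds to 98.1-fold on the unlogged FPKM, and was the largest rise among the 15 genes the study names. The adjacent gene of the same alpha family, Cre04.g223050 (1843535 to 1847845), had 10.0 and 11.1 FPKM against 0.346 and 0.273 FPKM (3.14), and the third member, Cre09.g415700, had 45.1 and 52.9 against 25.0 and 25.4 FPKM (0.93). Both genes on chromosome 4 were under 1 FPKM in the dark and passed the filter through the light alone.

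Genes with ATP synthase and alpha-amylase domains did not move one way. Of 13 genes with a domain of ATP synthase subunits, 4 were higher and 5 lower at ZT3. These shares, 30.8% and 38.5%, were near the 38.1% and 36.7% of all genes tested. On the FPKM as deposited, 3 of the 13 were higher and 9 lower, with a median of -0.49. As reported, their median was -0.06, which turned to 0.060 under scaling to a common median. The domains do not say in which compartment a locus works, so these genes are not a set for respiration. Cre06.g259900 (477 and 491 against 118 and 117 FPKM, 2.03 ± 0.08) and Cre18.g749900 (680 and 660 against 202 and 208 FPKM, 1.71 ± 0.07) were the only members at least 2-fold apart. Cre17.g698000, which the study lists as ATP2/ARF1 and whose locus carries the ATP synthase domain, had 219 and 235 FPKM against 272 and 266 FPKM (-0.25 ± 0.06, limma adjusted p = 2.26e-03), a call lost under scaling to a common median. The study's cytochrome c gene CYC4, an electron carrier, was higher in the light (11.1 and 10.5 against 3.83 and 4.304 FPKM, 1.22 ± 0.10). Among 10 genes with an alpha-amylase domain, found in enzymes that build or cut starch, 4 were higher and 3 lower, from Cre08.g385500 at 1.22 to Cre19.g755050 at -1.15. The 4 and 3 are 40% and 30% of the 10, also near the shares of all genes. Their median of 0.15 turned to -0.14 on the FPKM as deposited.

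Enzymes around pyruvate and malate split by locus in the same manner. Of 5 pyruvate kinase genes, which make the last step of glycolysis, Cre02.g147900 (36.8 and 39.1 against 10.1 and 8.94 FPKM, 1.89), Cre12.g533550 (1.09) and Cre05.g234700 (0.73) were higher in the light, and Cre01.g057900 was lower (-0.46). Cre06.g280950 overlapped between time points (21.6 and 22.4 against 22.2 and 20.7 FPKM, 0.03). Of the acyltransferase subunits of 2-oxoacid dehydrogenases, Cre03.g158900 had 104 and 104 FPKM against 21.3 and 20.5 FPKM (2.26 ± 0.07, limma adjusted p = 6.23e-13), while Cre07.g343450 had 4.18 and 3.93 against 9.59 and 8.54 FPKM (-0.99). Of 5 lactate and malate dehydrogenases, Cre09.g410700 (1.08) and Cre03.g194850 (0.75) were higher and Cre10.g423250 (-0.56) was lower. The other two, Cre02.g145800 and Cre12.g483950, differed by -0.22 each, calls that were lost under scaling to a common median and without replicate A of ZT3 or replicate B of ZT15.

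Genes for cytosolic ribosomes were higher in the light, each by a small amount, in lists that the study formed from genes with a peak at ZT3. All 26 genes of the study's large subunit list and all 20 of its small subunit list were higher at ZT3, with medians of 0.64 and 0.68 and no member past 2-fold. The 46 genes ranged only from 0.53 to 0.93, in spite of mean levels at ZT15 from 76.0 to 3217 FPKM. On the FPKM as deposited, the medians were 0.21 and 0.24, with 14 of 26 and 14 of 20 still higher and none lower. Cre16.g666301 of the small subunit had 1716 and 1502 FPKM against 828 and 903 FPKM (0.89 ± 0.11, limma adjusted p = 3.70e-06), and Cre26.g773500 of the large subunit had 407 and 308 FPKM against 183 and 189 FPKM (0.92 ± 0.13). The study's lists for translation, rRNA binding, nucleolus and cell wall shared 22 of 26, 8 of 11, 24 of 26 and 16 of 22 members with the ribosomal lists. The 57 distinct genes over all 6 lists were all higher, and so these are largely 1 group of genes and not 6. The large subunit, translation and nucleolus lists were held only in part.

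Families set by their protein domains, without use of expression, gave a more mixed picture of translation. Of 19 genes with a ribosomal protein domain, 16 were higher and 2 lower, and on the FPKM as deposited 6 were higher and 2 lower. Cre13.g580850 led the rise (325 and 310 against 121 and 98.6 FPKM, 1.53) and Cre03.g170750 the fall (3.09 and 2.68 against 11.0 and 8.76 FPKM, -1.48). Aminoacyl-tRNA synthetases, which charge tRNAs with amino acids, were higher in 7 of 7 genes of class I (median 0.94) and in 5 of 6 of class II (0.67), and on the FPKM as deposited in 7 and 3. Cre02.g124450 of class II had 14.5 and 14.4 FPKM against 5.26 and 4.82 FPKM (1.35 ± 0.07, limma adjusted p = 6.14e-11). TufA, elongation factor Tu, which brings tRNAs to the ribosome, rose from 3.14 and 3.19 FPKM in the dark to 11.1 and 12.5 FPKM in the light (1.62 ± 0.08). Of all 37 translational GTPases tested, 18 were higher and 8 lower with a median of 0.25, which turned to -0.12 on the FPKM as deposited.

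**Figure D3:**
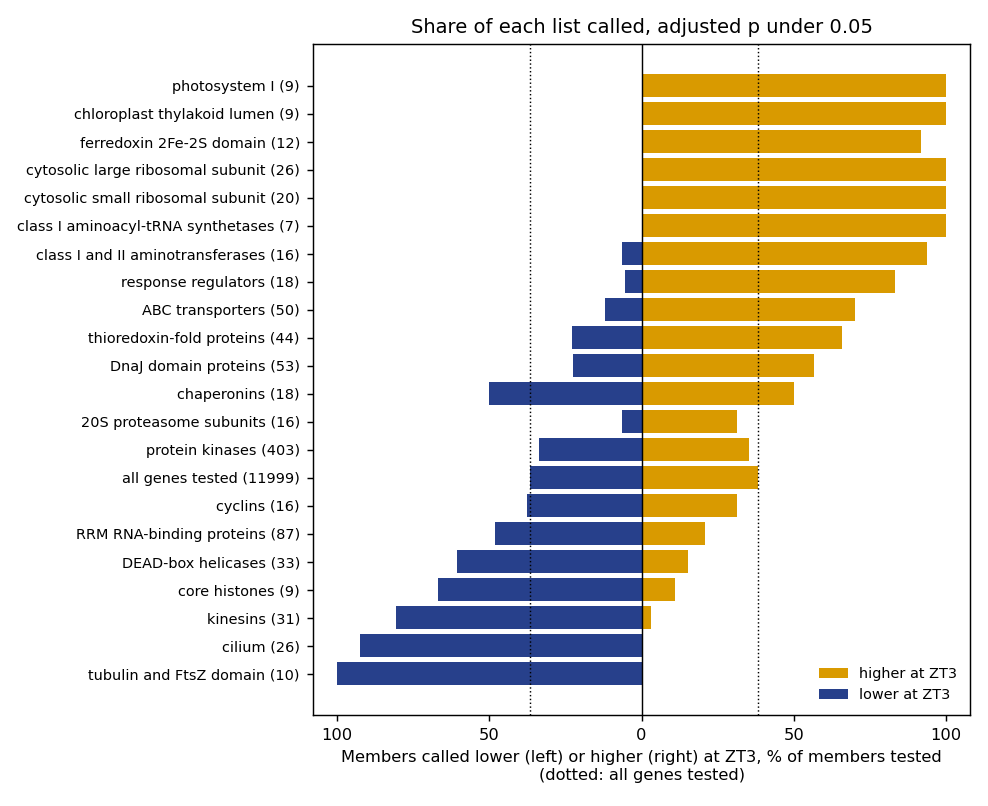
For 21 gene lists and for all genes tested, bars to the right give the percentage of tested members called higher at ZT3 and bars to the left the percentage called lower, with dotted lines at 38.1% and 36.7%, the shares of all genes tested. The photosystem I, lumen and ribosomal subunit lists reach 100% higher and the tubulin and FtsZ domain family 100% lower, while protein kinases, at 142 higher and 136 lower of 403, lie near the dotted lines.

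Chaperones help proteins fold, and their families were split. HSP70B, which the study lists as a 70-kDa heat shock protein, had 105 and 124 FPKM in the light and 63.5 and 58.7 FPKM in the dark (0.89 ± 0.12, limma adjusted p = 5.76e-06). Among the 10 Hsp70-domain genes tested it was 1 of 2 that were higher, with Cre09.g393200 (1.02), and 5 were lower, none by 2-fold. Of the 3 Hsp90 genes, Cre02.g080650 (28.3 and 32.7 against 12.4 and 14.1 FPKM, 1.14) and Cre09.g386750 (0.57) were higher, the second only with the scaling, and Cre12.g514850 did not pass the test (20.6 and 23.0 against 20.6 and 19.7 FPKM).

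The chaperonins, barrel-shaped folding complexes, divided evenly, with 9 genes higher and 9 lower of 18 tested. Those that were higher included Cre01.g065600 (66.8 and 65.8 against 27.2 and 24.7 FPKM, 1.32 ± 0.08), Cre12.g505850 (0.93) and Cre28.g776900 (0.90), and 6 of the 9 had their highest mean of the day at ZT3. Of the 9 lower genes, 8 had their highest mean at ZT9. DnaJ-domain proteins, partners of Hsp70, were higher in 30 and lower in 12 of 53 tested. The neighboring genes Cre16.g694450 (13.1 and 13.2 against 0.403 and 0.446 FPKM, 3.31) and Cre16.g694500 (7.69 and 8.38 against 0.174 and 0.117 FPKM, 2.98) were among the largest rises, both from under 1 FPKM in the dark, and Cre07.g327450 (50.4 and 45.8 against 3.51 and 2.92 FPKM) was larger still at 3.55. The DnaJ median of 0.30 turned to -0.063 on the FPKM as deposited, and that of the chaperonins from 0.13 to -0.29. Of the 53 DnaJ-domain genes, 12 were under 1 FPKM at 1 time point.

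Among peptidyl-prolyl isomerases, 5 of 21 FKBP-domain genes and 4 of 27 cyclophilins were at least 2-fold higher in the light. At least 2-fold lower were 1 and 0. Of all genes tested, 11.1% were at least 2-fold higher and 11.3% lower. Cyclophilins had a median of -0.07, with 33.3% called higher and 29.6% lower, beside 38.1% and 36.7% of all genes. Of 21 FKBP-domain genes tested, 11 were higher and 6 lower, led by Cre11.g472300 (5.79 and 5.55 against 0.543 and 0.682 FPKM, 2.05), which was under 1 FPKM in the dark, and Cre12.g530300 (43.3 and 46.4 against 13.8 and 12.9 FPKM, 1.68). Of 27 cyclophilins, 9 were higher and 8 lower (7 and 18 on the FPKM as deposited), with Cre03.g174750 at 12.3 and 12.4 against 1.14 and 0.735 FPKM (2.80 ± 0.11, limma adjusted p = 7.96e-12), a mean under 1 FPKM in the dark. In the 20S proteasome, the chamber in which marked proteins are cut, changes were small, as 5 of its 16 subunits were higher and 1 lower, with log2 differences between -0.20 and 0.47 and none past 2-fold. Before scaling, 10 of the 16 were lower and none higher. Of these 16 genes, 15 had their highest mean at ZT9.

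Thioredoxins and related proteins pass reducing power to target enzymes, in the chloroplast from ferredoxin in the light. Of 44 thioredoxin-fold genes tested, 29 were higher at ZT3, 14 of them by at least 2-fold, and 10 were lower, with a median of 0.56. Cre23.g766300 had the largest difference of the family, at 179 and 174 FPKM against 9.24 and 9.36 FPKM (4.11 ± 0.09, limma adjusted p = 2.19e-14). Cre12.g496700 (73.1 and 69.2 against 5.88 and 6.93 FPKM, 3.29), Cre03.g202950, which also carries EF hands (28.3 and 29.1 against 2.41 and 2.53 FPKM, 3.10), and Cre01.g054150 (2.54) followed. The cytosolic thioredoxin h1 gene was abundant at both times, at 133 and 130 against 95.6 and 98.9 FPKM (0.43 ± 0.09), and its call was lost on the FPKM as deposited.

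Enzymes that remove peroxides and superoxide were of both kinds. Of 4 glutathione peroxidases, Cre10.g458450 (69.4 and 63.2 against 18.7 and 20.1 FPKM, 1.72), Cre41.g786523 (1.54, from under 1 FPKM in the dark) and Cre03.g197750 (1.37) were higher and Cre10.g440850 was lower (-0.41), a call lost without replicate B of ZT15. The heme peroxidase Cre05.g233900 had 36.5 and 39.2 FPKM against 5.32 and 6.02 FPKM (2.54 ± 0.09, limma adjusted p = 9.64e-13), while Cre02.g139650 was lower (-1.09). Of the iron and manganese superoxide dismutases, the most abundant, Cre10.g436050, was higher (329 and 329 against 138 and 127 FPKM, 1.30), and Cre02.g096150 (-0.47), Cre13.g605150 (-0.44) and Cre16.g676150 (-1.41) were lower. Glutathione S-transferases, which conjugate glutathione to toxic compounds, were higher in 8 and lower in 2 of 14 (median 0.30, or -0.091 on the FPKM as deposited), from Cre12.g508850 at 2.44 to Cre01.g064400 at -1.53.

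Genes of nitrogen and amino acid metabolism were mostly higher in the light. Of 16 class I and II aminotransferases tested, which move amino groups between carbon skeletons, 15 were higher and 1 lower with a median of 0.70, and on the FPKM as deposited 10 were higher and 1 lower. Cre17.g734200 had 57.1 and 58.4 FPKM against 16.3 and 13.01 FPKM (1.92 ± 0.10, limma adjusted p = 7.19e-11). Glutamine synthetase, which assimilates ammonium, was higher in 3 of 4 genes tested, among them the neighbors Cre12.g530600 (283 and 311 against 179 and 177 FPKM, 0.74) and Cre12.g530650 (337 and 297 against 192 and 177 FPKM, 0.77). Cre02.g113200 overlapped between time points, at 76.1 and 82.3 against 85.9 and 79.1 FPKM. The glutamate dehydrogenases went opposite ways, Cre05.g232150 at 26.7 and 25.0 against 11.9 and 12.7 FPKM (1.01) and Cre09.g388800 at 0.239 and 0.228 against 2.15 and 2.38 FPKM (-1.40), the second under 1 FPKM in the light and tested because of the dark. Of 4 beta-ketoacyl synthases tested, a family that elongates fatty acids, 3 were higher and 1 was lower. The largest rises were those of Cre07.g335300 (18.5 and 17.9 against 5.60 and 4.37 FPKM, 1.69) and Cre22.g765250 (1.45), and the fall was that of Cre10.g438050 (-0.34).

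Among membrane transporters, the ABC family was the one with most members higher in the light. Of 50 tested, 35 were higher and 6 lower with a median of 0.40, and on the FPKM as deposited 19 were higher and 14 lower. Cre13.g580300 (6.63 and 7.54 against 0.811 and 1.08 FPKM, 2.06) and Cre17.g731050 (1.68) had the largest rises, both from means under 1 FPKM in the dark. Of 40 mitochondrial carriers, which exchange metabolites across the inner membrane, 19 were higher and 9 lower. Cre04.g222750 (13.05 and 11.1 against 0.833 and 0.877 FPKM, 2.81) and Cre06.g270150 (0.368 and 0.476 against 7.79 and 9.68 FPKM, -2.77) marked both ends of the family, each with a mean under 1 FPKM at the time when it was low. The median of the carriers, 0.14, turned to -0.21 on the FPKM as deposited.

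Several genes of DNA replication and the cell cycle were far lower in the light than in the dark. The ribonucleotide reductase small subunit Cre12.g491050, which makes the building blocks of DNA (chromosome 12, 956601 to 960026), had 0.641 and 0.353 FPKM at ZT3 and 51.8 and 66.4 FPKM at ZT15. It differed by -5.32 ± 0.17 on the log2 scale (limma adjusted p = 4.20e-13), or 119-fold. The other small subunit gene, Cre12.g509400, was present at both times (10.0 and 9.99 against 15.8 and 14.1 FPKM, -0.53). The family B DNA polymerases Cre01.g015250 (0.244 and 0.207 against 4.72 and 5.63 FPKM, -2.33) and Cre04.g214350 (-1.65) were lower at ZT3, as was Cre01.g009250, of the gyrase B and topoisomerase II family that untangles DNA (0.0605 and 0.0688 against 5.79 and 7.71 FPKM, -2.85). The recombinase-family gene Cre14.g622850 had 0.0482 and 0.146 against 5.73 and 8.86 FPKM (-2.89), and the DNA cytosine methyltransferase Cre10.g461750 had 0.0447 and 0.0136 against 1.94 and 2.31 FPKM (-1.60). Of the genes in this paragraph all but Cre12.g509400 were under 1 FPKM at ZT3 and were tested because of their level at ZT15.

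Core histones, which package new DNA, were 129 genes in the family, of which only 9 reached the filter and 6 of these were lower at ZT3 and 1 higher. Cre13.g567700 was measurable at both times, with 12.6 and 13.4 FPKM in the light against 281 and 329 FPKM in the dark (-4.44 ± 0.11, limma adjusted p = 6.93e-14). Cre16.g661450 (0.145 and 0.115 against 10.1 and 10.9 FPKM, -3.35), Cre03.g193900 (-2.99) and Cre02.g104800 (-2.91) were under 1 FPKM in the light. Levels of single histone genes are uncertain, since near-identical copies share reads.

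Cyclins, partners of the kinases that drive the cell cycle, were of both kinds, 5 higher and 6 lower of 16 tested, which is near the shares of all genes. The largest fall was that of Cre03.g207900 (chromosome 3, 7051188 to 7053736), at 0.232 and 0.401 FPKM against 52.3 and 59.8 FPKM (-5.44 ± 0.14, limma adjusted p = 7.22e-14), a gene under 1 FPKM in the light that was tested because of its level in the dark. Cre08.g370400 had 8.04 and 7.51 FPKM against 84.0 and 91.2 FPKM (-3.33), whereas Cre17.g711550 was higher in the light (12.3 and 12.7 against 3.02 and 2.81 FPKM, 1.79). Ubiquitin-conjugating enzymes, which mark proteins for degradation, were higher in 6 and lower in 7 of 22 tested, with a median of 0.01. These are 27.3% and 31.8%, beside 38.1% and 36.7% of all genes tested. On the FPKM as deposited, 2 were higher and 15 lower, with a median of -0.37. At least 2-fold apart were 5 lower genes and 1 higher, among the former Cre10.g430050 (2.75 and 2.43 against 15.8 and 17.6 FPKM, -2.30) and Cre06.g292800 (4.25 and 3.94 against 19.5 and 22.3 FPKM, -2.10).

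All 10 genes with a tubulin and FtsZ GTPase domain were lower in the light. Tubulins form the spindle and the ciliary axoneme and FtsZ proteins the ring that divides plastids, and the domain alone does not say which of these a locus encodes. TUB2 (Cre12.g549550), a beta-tubulin, had 103 and 109 FPKM at ZT3 and 444 and 496 FPKM at ZT15 (-2.13 ± 0.09, limma adjusted p = 7.04e-12). TUB1 (Cre12.g542250), also a beta-tubulin, had 360 and 413 against 811 and 916 FPKM (-1.16 ± 0.10). The largest differences were those of genes under 1 FPKM in the light, with Cre02.g118600 at 0.239 and 0.141 against 31.5 and 40.6 FPKM (-4.95), Cre15.g646150 at -4.02 and Cre06.g299300 at -2.74. Another gene under 1 FPKM in the light, Cre03.g172650 (0.656 and 0.741 against 2.09 and 1.91 FPKM), differed by only -0.82. The family's median was -1.21 and 7 of 10 differed by at least 2-fold, but 4 of the 10 were under 1 FPKM at ZT3. Near-identical copies in the family could share reads.

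Kinesins, motors that walk along microtubules, were lower in 25 and higher in 1 of 31 tested, with a median of -0.54 and 11 genes at least 2-fold lower, and 9 of the 31 were under 1 FPKM at 1 time point. The largest differences were those of Cre01.g065200 (0.116 and 0.0704 against 9.44 and 11.6 FPKM, -3.39 ± 0.15, limma adjusted p = 2.42e-11), Cre16.g656700 (-3.34) and Cre10.g456350 (-3.26), all under 1 FPKM in the light. Of 7 actin-family genes none was higher and 3 were lower, led by Cre16.g687500 at -0.61. The study's cilium list, held in part, had 24 of 26 genes lower at ZT3 and none higher, with a median of -0.62 and none past 2-fold. Cre07.g351650 had 63.8 and 63.3 against 121 and 114 FPKM (-0.87) and Cre12.g528850 had 17.7 and 16.4 against 33.1 and 32.9 FPKM (-0.92). With the list of cell projection organization, 28 distinct cilium genes were listed, 27 of which had their highest mean at ZT21, the hour of peak by which the study chose them.

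RNA-binding families also held more lower than higher genes. Of 33 DEAD-box helicases tested, which unwind RNA, 20 were lower at ZT3 and 5 higher (median -0.33), and 9 were at least 2-fold lower and none as much higher. The largest fall was that of Cre02.g118300 (1.88 and 2.31 against 16.5 and 14.0 FPKM, -2.39 ± 0.15, limma adjusted p = 8.91e-10). Of 87 proteins with an RNA recognition motif, 42 were lower and 18 higher (median -0.17), but the largest difference among them was a rise, that of Cre06.g268600 (202 and 193 against 25.4 and 22.9 FPKM, 2.98 ± 0.08). Cre06.g275100 was the largest fall, at 17.6 and 19.3 against 137 and 113 FPKM (-2.68).

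Among signaling and transcription factor families, protein kinases, Myb and bZIP proteins held strong changes in single genes and moved in both directions. Of 403 protein kinases tested, 142 were higher and 136 lower, 35.2% and 33.7%, close to the shares of all genes, and the median was 0.02. Before scaling, 59 were higher and 241 lower. Cre03.g205950 rose from 1.12 and 1.18 FPKM in the dark to 34.5 and 32.0 FPKM in the light (3.99), and Cre08.g372550 fell from 64.4 and 79.9 FPKM in the dark to 0.547 and 0.299 FPKM in the light (-5.68 ± 0.13, limma adjusted p = 3.51e-14), the latter under 1 FPKM in the light and tested because of the dark. Of 32 Myb-domain proteins, 9 were higher and 11 lower (28.1% and 34.4%), with a median of -0.06. At least 2-fold lower were 8 and 2 were as much higher, beside 11.3% and 11.1% of all genes, though 10 of the 32 were under 1 FPKM at 1 time point. The largest falls were those of Cre06.g275350 (0.881 and 0.684 against 26.7 and 27.7 FPKM, -3.99) and Cre09.g410450 (0.554 and 0.694 against 20.1 and 19.7 FPKM, -3.69), both under 1 FPKM in the light. The bZIP proteins Cre10.g438850 (87.2 and 87.7 against 22.8 and 21.2 FPKM, 1.94) and Cre16.g692250 (0.795 and 0.634 against 6.50 and 5.99 FPKM, -2.08) went opposite ways, the second from under 1 FPKM in the light. Of 22 proteins with EF hands, which bind calcium, 4 were higher and 12 lower, with a median of -0.21.

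Response regulators, which receive a phosphate in histidine kinase signaling, were higher in 15 and lower in 1 of 18 tested, with a median of 0.54, and 9 were higher and 3 lower on the FPKM as deposited. Cre13.g572450 had 26.1 and 24.6 FPKM against 3.31 and 2.55 FPKM (2.75 ± 0.16, limma adjusted p = 3.95e-10) and Cre02.g094150 had 7.79 and 7.49 against 2.25 and 2.08 FPKM (1.45). The exception was Cre01.g066750, at 0.352 and 0.211 against 1.80 and 2.41 FPKM (-1.27), under 1 FPKM in the light. Adenylate and guanylate cyclases, a family of 118 genes with 62 tested, were higher in 23 and lower in 20 (7 and 35 on the FPKM as deposited). The 23 and 20 are 37.1% and 32.3%, near the 38.1% and 36.7% of all genes tested. At the ends were Cre12.g489900 (2.98 and 3.20 against 0.461 and 0.560 FPKM, 1.44, under 1 FPKM in the dark) and Cre09.g391050 (1.45 and 1.55 against 4.73 and 5.14 FPKM, -1.25).

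Over the whole day, the genes that were at least 2-fold apart between ZT3 and ZT15 did not all peak at those hours. Of the 1333 genes higher at ZT3, 790 (59.3%) had their highest mean at ZT3 and 406 (30.5%) at ZT6, and their lowest means fell at ZT15 (409), ZT12 (392) and ZT9 (295). Of the 1355 genes lower at ZT3, 652 (48.1%) had their highest mean at ZT12, which was sampled in the light just before it went off, and 343 (25.3%) at ZT15. Their lowest means fell at ZT3 in 724 genes (53.4%) and at ZT6 in 407 (30.0%). The genes of DNA replication named above, Cre12.g491050, Cre01.g015250 and Cre01.g009250, the histone Cre13.g567700 and the cyclin Cre03.g207900 were all highest at ZT12. These peaks partly follow from how the genes were selected and are given as a description.

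**Figure D4:**
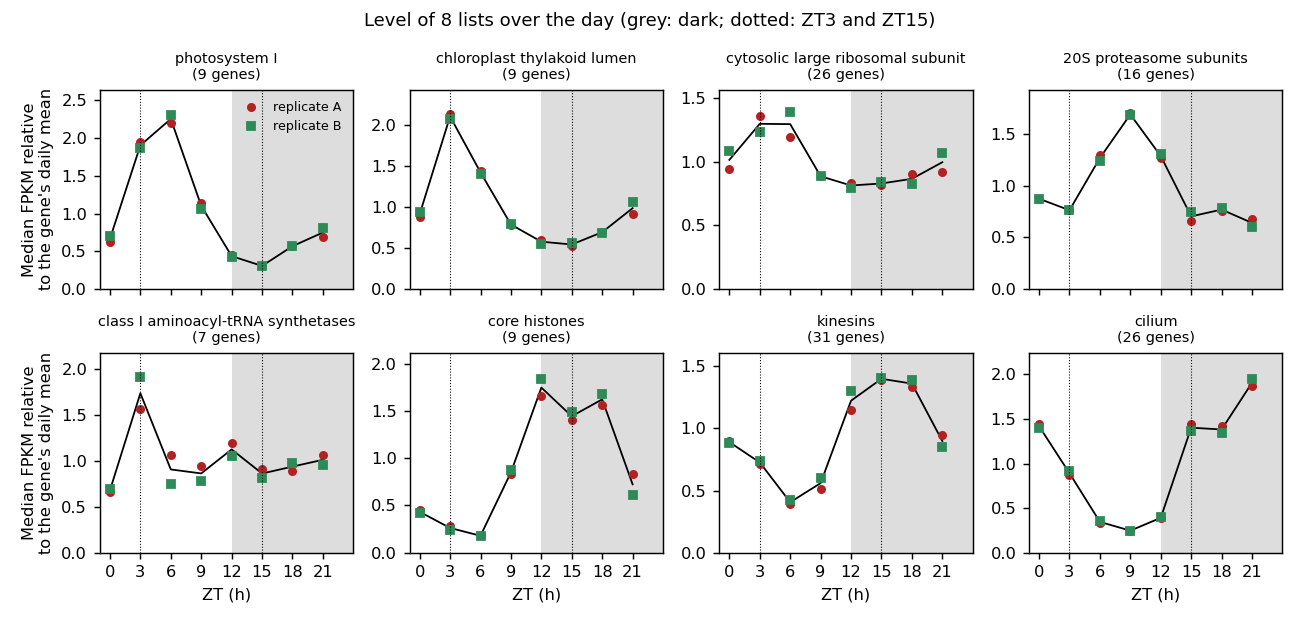
For 8 gene lists, the median level relative to each gene's mean over the day is plotted against ZT for replicates A and B, with a line through the mean of both, the dark hours in grey and dotted lines at ZT3 and ZT15. The photosystem I list is at 1.90 times its daily mean at ZT3, 2.25 at ZT6 and 0.31 at ZT15, and the cilium list is lowest at ZT9 (0.25 times) and highest at ZT21 (1.91 times), the study having formed both lists by the hour of their peak.

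The difference between 3 hr of light and 3 hr of dark was set beside those between ZT6 and ZT18 and between ZT9 and ZT21, which also lie 12 hr apart and use other libraries. It differed from the ZT6 to ZT18 difference in 7765 genes (64.7%) and from the ZT9 to ZT21 difference in 9286 genes (77.4%; limma, adjusted p under 0.05). Of the 1333 genes at least 2-fold higher at ZT3, 1015 (76.1%) were also higher at ZT6 than at ZT18 and 183 were lower, with a median of 0.97. At ZT9 against ZT21, 466 (35.0%) were higher and 645 (48.4%) were lower, with a median of -0.16. Of the 1355 genes at least 2-fold lower at ZT3, 1195 (88.2%) were also lower at ZT6 (median -1.71), but at ZT9 633 (46.7%) were lower and 478 (35.3%) higher (median -0.16). Over all genes tested, the median was 0.005 for ZT6 against ZT18 and 0.08 for ZT9 against ZT21. The shares of all genes called higher or lower at those hours are not given here, so the percentages have no background beside them.

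Named genes showed each kind of pattern. PRK1 differed by 3.64, 2.72 and 0.16 at the 3 pairs of hours in order, and LHCII by 4.06, 3.16 and 1.68. CAH1 and FNR1 turned direction between the first and last pair, from 5.06 to -1.86 and from 3.24 to -1.06, and the difference of these differences was 6.92 and 4.303 on the log2 scale (limma adjusted p = 2.53e-13 and 2.99e-13). CAH1 was under 1 FPKM at ZT9, with a mean of 0.388 FPKM against 4.03 FPKM at ZT21. The GAPDH-domain gene Cre12.g485150 had differences of -2.92, 1.05 and 2.51. The ribonucleotide reductase gene Cre12.g491050 had -5.32, -5.20 and 0.60, and the tubulin-domain gene Cre02.g118600 had -4.95, -4.61 and 1.60. TUB1 and TUB2, in contrast, were lower in the light at all 3 pairs, TUB2 with differences of -2.13, -3.76 and -2.52. The 2 ribosomal lists had medians of 0.59 and 0.61 at ZT6 and of -0.18 and -0.21 at ZT9, and all 26 and all 20 of their genes differed between the first and last pair. The median of the cilium list was -0.62, -1.82 and -2.64.

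**Figure D5:**
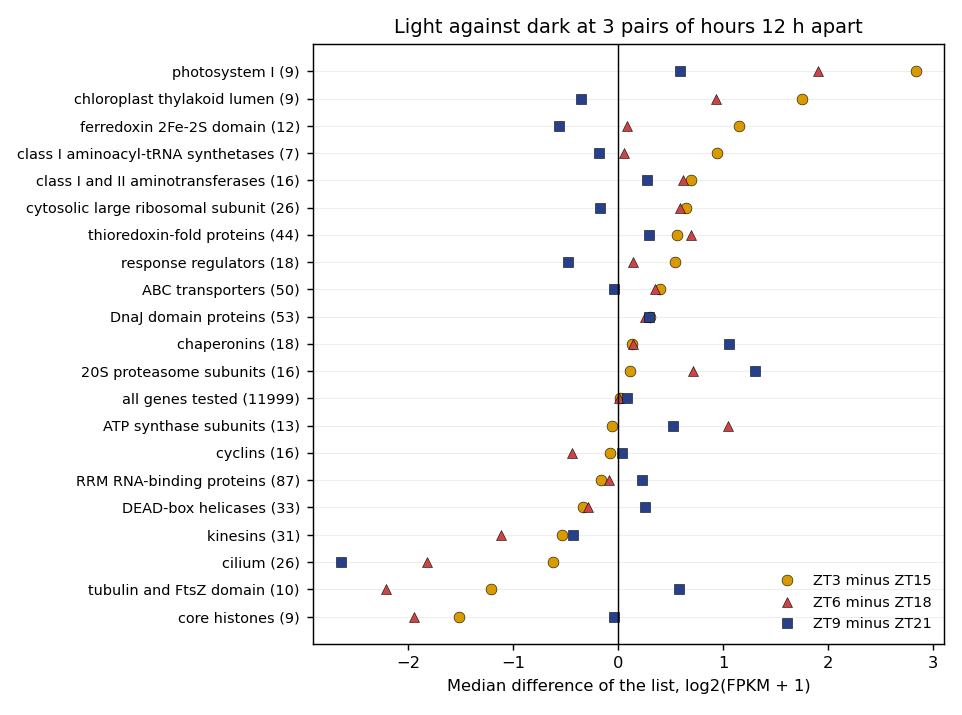
The median log2 difference of each list is shown for ZT3 minus ZT15, ZT6 minus ZT18 and ZT9 minus ZT21, with the number of genes tested in parentheses. The photosystem I list keeps its sign with medians of 2.83, 1.91 and 0.59, while the ferredoxins fall from 1.15 to 0.08 and then to -0.57, and the tubulin and FtsZ domain family turns from -1.21 and -2.21 to 0.58.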

How the data were processed

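RNA from 16 cultures was sequenced, and the ZT3 and ZT15 libraries were compared. The authors mapped reads with TopHat to genome version 4.3, keeping 1 hit per read, and deposited FPKM per gene model from Cufflinks. The library kit was a stranded one, but the study names no strand option among the settings it changed, so overlapping genes are uncertain. The versions of both programs are not given in the sources used here. The deposited FPKM are not scaled between libraries. Here each library was scaled to a common 75th percentile over 17114 gene models, and the factors were within 0.0109% of those of a deposited table of 50 scaled genes. The number of fragments behind each FPKM was recovered from the deposited confidence limits and was whole (within 0.05) in 100% of values under 300 fragments. Fragments cover counting error only.

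Linear models with a factor of 8 time points were fitted to log2(FPKM + 1) of all 16 libraries with limma 3.58.1 in R 4.3.3, with an intensity trend. Genes entered the comparison if they averaged 1 FPKM or more over its 4 libraries, and p-values were adjusted by Benjamini-Hochberg at 0.05 over all 11999. The spread is thus shared by all time points. Lists and summaries were computed with pandas 2.3.3, numpy 2.4.6 and scipy 1.17.1 in Python 3.11.15, and figures drawn with matplotlib 3.10.9. The scripts were tested on simulated data.

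Gene groups were domain families of the study's gene trees, function lists it drew from its cyclic genes of 1 peak hour, and 15 genes it names. The members and lists were chosen with earlier results of these data known. Named genes were the 15, the 10 with the largest difference in each direction, the 10 such that belong to a list, up to 4 leading members of each list, all members of lists of 5 or fewer, and the 5 of highest mean. Of the gene models, 12646 matched a RefSeq locus, which carries no symbols, so lists by symbol were not formed. The letters of the files of ZT6 differ from the sample titles, and the titles were used. Alternatives were other scalings, filters and pseudocounts, a fit to the libraries compared alone, a replicate block, voom on recovered fragments, and leaving out each replicate.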

Additional observations from a re-analysis of the deposited data

Results flagged for a closer look

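For 12 named genes the difference between ZT3 and ZT15 and the difference between ZT9 and ZT21 went opposite ways, by at least 1 on the log2 scale in the first and at least 2 in the second. The difference between both was itself tested (limma, adjusted over all genes). These 12 were picked for this pattern among the named genes, so their number is a description. Cre01.g064850, Cre11.g472300 and Cre12.g489900 were under 1 FPKM at ZT15 and Cre01.g066750 at ZT3. Low levels also occurred at the other pair of hours, as in FBA2 with a mean of 0.518 FPKM at ZT9. In 9 of them the gene was higher in the light at ZT3 and lower in the light at ZT9.

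The gene Cre01.g064850 went from 4.93 to -3.67, a difference of differences of 8.60 (adjusted p = 2.24e-14), and the ferredoxin-domain gene Cre07.g334800 went from 3.37 to -4.28, a difference of 7.65 (4.22e-14). The AAA-ATPase-domain gene Cre04.g229300 followed with 6.36 (2.41 against -3.95), then the aldolase FBA2 (Cre02.g093450) with 5.03 (2.02 against -3.01), the ribosomal-domain gene Cre13.g580850 with 4.90 (1.53 against -3.37) and the pyruvate kinase Cre02.g147900 with 4.56 (1.89 against -2.67). For the FKBP-domain gene Cre11.g472300 it was 4.28 (2.05 against -2.23), for the ferredoxin-domain gene Cre06.g306350 it was 3.99 (1.68 against -2.31), and for the cyclase-domain gene Cre12.g489900 it was 3.95 (1.44 against -2.51).

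The other 3 genes were lower in the light at ZT3 and higher in the light at ZT9. Cre17.g708750 had -8.77 (-6.15 against 2.62, adjusted p = 3.62e-13), the GAPDH-domain gene Cre12.g485150 had -5.43 (-2.92 against 2.51) and the response regulator Cre01.g066750 had -4.72 (-1.27 against 3.45). Over all 12, the adjusted p-values of the difference lay between 2.24e-14 and 1.57e-12.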

How the results depend on the processing

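The balance of directions moved most with the scaling. On the FPKM as deposited 2686 genes were higher and 7237 lower of 12757 at ZT3 (27.1% of calls higher, beside 50.9%). At least 2-fold differences were then found for 895 genes higher and 2404 lower, beside 1333 and 1355. Over the 11999 genes of the comparison as reported, 27.8% of calls were higher on the FPKM as deposited. The median over all genes tested moved from 0.01 to -0.34 on the FPKM as deposited and to 0.11 under scaling to a common median, where 58.2% of calls were higher. With a mean of at least 5 FPKM, 4950 genes were tested, and the counts fell with them to 2261 higher, 1688 lower, 497 at least 2-fold lower, 3638 that differed from ZT6 against ZT18 and 4068 from ZT9 against ZT21. A pseudocount of 0.1, no filter, the 4 libraries alone, no intensity trend and voom on recovered fragments gave 4532 to 5399 genes higher and 4321 to 5713 lower. The 2-fold counts rose to 1755 higher and 1740 lower with the pseudocount of 0.1, and to 1835 and 1796 with voom. Leaving out each of the 4 libraries in turn gave 4163 to 4303 genes higher, 4025 to 4122 lower, 1322 to 1357 and 1334 to 1378 at least 2-fold higher and lower, 7153 to 7533 that differed from ZT6 against ZT18 and 8930 to 9035 from ZT9 against ZT21; the lone culture was then assumed to vary like the others. A replicate block gave 4584 higher and 4405 lower. The deviations of same-numbered cultures of ZT3 and ZT15 correlated at -0.07 across genes, and over all pairs of time points between -0.27 and 0.34 with 10 of 28 over 0.1. Replicates were run in separate lanes, but the sources used here do not tie a letter to a lane, so the letters were not taken to pair the samples and an effect of the lane was not tested apart from the block. The block changed no call of a named gene.

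Signs of small differences turned. On the FPKM as deposited Cre07.g354200 had -0.27, Cre06.g280950 -0.39 and Cre12.g514850 -0.31, and under scaling to a common median Cre09.g387800 had 0.10, Cre03.g184650 0.069 and Cre02.g113200 0.061. Leaving out each of the 4 libraries gave -0.017 (without ZT15 B) to 0.080 for Cre06.g280950, -0.18 to 0.13 (above 0 without replicate A of ZT3 or ZT15) for Cre09.g387800 and -0.12 to 0.0010 (without ZT15 A) for Cre02.g113200. None of these genes passed the test in the comparison as reported, but on the FPKM as deposited all of them did, with adjusted p (limma) from 6.04e-06 to 0.00909, where Cre09.g387800 had -0.45, Cre03.g184650 -0.42 and Cre02.g113200 -0.49. Cre12.g514850 also passed under a common median (0.22, 0.0249). Medians that turned on the FPKM as deposited included those of the alpha-amylase domain (-0.14, and -0.16 with at least 5 FPKM), translational GTPases (-0.12) and chaperonins (-0.29). So did those of the DnaJ domain (-0.063), glutathione S-transferases (-0.091), mitochondrial carriers (-0.21) and cyclases (-0.25). The medians of protein kinases (0.02 to -0.33), ubiquitin-conjugating enzymes (0.01 to -0.37) and bZIP proteins (0.03 to -0.38) also turned. The GAPDH domain (0.08 to -0.27) and the 20S proteasome (0.11 to -0.30) did likewise. Under a common median those of ATP synthase (0.060) and cyclophilins (0.037, and 0.071 with at least 5 FPKM) turned. The cause was not tested beyond the scaling itself.

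With 2 cultures per time point and 1 series of cycles, the spread between experiments is not covered. Genes of a few fragments per library, as many of the cell division genes at ZT3, have levels known only within counting error.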
